A study of Mus musculus with 9 samples.

Results

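A small set of genes marks T cells that recirculate through lymph nodes in a naive or resting state, and 9 of them were listed here: the receptors Il7r, Ccr7 and S1pr1, the transcription factors Klf2, Klf4, Lef1, Foxo1 and Tcf7, and the metabolic regulator Txnip. They were chosen by name, and every probe set that carries one of these names was read on all arrays. Of the 9 genes 8 had a probe set named in the annotation used here, 14 probe sets in all among the 22690 of the table, and Tcf7 was not analysed here. The samples were CD4+CD25+ regulatory T cells of C57BL6 mice, obtained with magnets, in 3 groups of 3 arrays. One group was wild type, and the others were conditional Sirt1 knockouts that carried either a CD4 cre recombinase (called CD4-cre) or a Foxp3 cre recombinase (called Foxp3-cre). The study's title places Sirt1 targeting next to the function of regulatory T cells. The labels give no ages and do not say whether wild type mice carried a floxed allele or a Cre. They also do not say which part of Sirt1 was removed, or whether animals were pooled.

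Naive T cells circulate between blood and lymph nodes. CCR7 brings them into the node along a chemokine gradient, and S1PR1, a receptor for the lipid sphingosine 1-phosphate, takes them out again. The transcription factor FOXO1 is held in the cytoplasm when PI3K and AKT are active. In resting cells it enters the nucleus and switches on Il7r and Klf2, and KLF2 in turn drives S1pr1. SIRT1 is a deacetylase, and FOXO proteins are among its known substrates. Regulatory T cells include a resting fraction that uses this programme to recirculate, and an activated fraction in which it is low.

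The promoter windows below belong to Klf4 and Foxo1, the genes that passed the test in one knockout, and to Txnip, a FOXO target whose window is the only one of these genes' windows with the FOXO motif searched. Each covers 250 bases before and 50 after the start site and comes from RefSeq, build GRCm38.p6, written 5′ to 3′ on the gene's strand. Capitals mark the motif matches, and no match overlapped another.
Klf4 (chr4:55532426-55532725, strand -): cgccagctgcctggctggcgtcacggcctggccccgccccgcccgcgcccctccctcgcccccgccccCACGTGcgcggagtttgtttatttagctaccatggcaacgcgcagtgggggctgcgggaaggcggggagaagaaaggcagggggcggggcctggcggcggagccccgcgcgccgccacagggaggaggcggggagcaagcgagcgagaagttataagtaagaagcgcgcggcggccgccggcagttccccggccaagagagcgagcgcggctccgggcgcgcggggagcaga
Foxo1 (chr3:52268087-52268386, strand +): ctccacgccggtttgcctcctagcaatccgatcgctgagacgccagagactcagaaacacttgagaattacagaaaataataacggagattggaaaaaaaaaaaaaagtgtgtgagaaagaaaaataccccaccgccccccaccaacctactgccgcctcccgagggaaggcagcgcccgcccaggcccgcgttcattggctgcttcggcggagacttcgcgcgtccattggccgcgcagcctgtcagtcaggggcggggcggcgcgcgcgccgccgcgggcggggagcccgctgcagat
Txnip (chr3:96557707-96558006, strand +): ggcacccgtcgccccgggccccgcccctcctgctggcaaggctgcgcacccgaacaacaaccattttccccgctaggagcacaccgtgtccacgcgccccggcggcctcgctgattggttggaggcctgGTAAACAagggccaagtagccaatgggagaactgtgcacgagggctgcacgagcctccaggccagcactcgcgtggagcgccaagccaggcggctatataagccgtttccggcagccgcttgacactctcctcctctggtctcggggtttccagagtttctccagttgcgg
The motifs searched on both strands were GTAAACA for FOXO factors, CCACCC for the CACCC boxes that Kruppel-like factors bind, CACGTG for E-box factors and TCAAAG for TCF and LEF. Only these exact letters were searched, so a window without them may hold a variant of the motif. Of the 8 genes 6 had at least 1 window, 9 windows in all. Txnip held GTAAACA at position -121 from the start, a motif present in 3.65% of the 32851 windows of the table. Klf4 held CACGTG at position -182 and the fourth Lef1 window held it at position -79, a motif that 7.15% of windows hold. Klf2 held CCACCC on the reverse strand at position -19. Lef1 window 1 held it at position -76 and Lef1 window 2 at position -102, which is the same site, since these windows overlap. Lef1 window 3 held it at position -77 and, on the reverse strand, at position -57. That motif occurs in 31.5% of windows. TCAAAG, in 16% of windows, was present in 1 window, the fourth of Lef1. The windows of Il7r and Foxo1 held none of these letters, which says nothing about the factors.

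The values are log2 signals, in which 2-fold means a difference of 1. Calls were made at a limma adjusted p below 0.05 over the 7436 genes with enough signal to test. All 8 genes were among them. As a check of the labels, Sirt1 itself read 7.91, 6.77 and 7.90 on wild type arrays, 7.69, 7.59 and 7.59 with CD4-cre and 7.66, 7.54 and 7.47 with Foxp3-cre, so with all arrays its 1 probe set did not separate the groups, and it does not check the labels. Apart from wild type replicate 2, its wild type arrays were above all 6 knockout arrays, with differences from wild type of -0.28 for CD4-cre and -0.35 for Foxp3-cre (limma adjusted p = 0.0730 and 0.0301). Foxp3, which defines the regulatory T cell lineage, averaged 9.39 in wild type and 9.66 with CD4-cre but read 2.67, 3.38 and 2.83 in Foxp3-cre. Cd4 lay between 8.69 and 9.23 and Il2ra, which encodes CD25, between 8.39 and 8.79 on all 9 arrays. Wild type replicate 2 stood apart. Its correlation with the other arrays was 0.982 to 0.987 where the others reached at least 0.992 among themselves, and its 5′ minus 3′ signal of beta-actin was -1.53 against -0.68 to -0.45. Values without it are given where it changed a call, cell type markers aside. Some other values without it are given as well.

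In Foxp3-cre regulatory T cells, Klf4 and Foxo1 fell, to signals 1.49-fold and 1.38-fold lower than in wild type, and no gene of the set rose. The other 6 genes did not pass, at differences between -0.46 for Il7r and 0.06 for Ccr7. In CD4-cre cells none of the 8 passed by limma, with 2 of them, Foxo1 and Lef1, at an unadjusted p under 0.05, as were 14.1% of all genes. Between the knockouts 0 of 8 passed by limma and 3 lay at an unadjusted p under 0.05 (11.3% of all genes did), Klf4, Klf2 and Il7r, all lower in Foxp3-cre. Over all genes tested, 3.36% were called in Foxp3-cre against wild type and 1.67% as lower, 0.659% in CD4-cre against wild type and 0.0134% between the knockouts. The median difference of the 8 genes was -0.20 in Foxp3-cre and -0.07 in CD4-cre, against 0.006 and 0.026 over all genes. Without wild type replicate 2 the medians of the 8 genes were -0.38 in Foxp3-cre and -0.07 in CD4-cre. Both comparisons use the same wild type arrays.

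**Figure D1:**
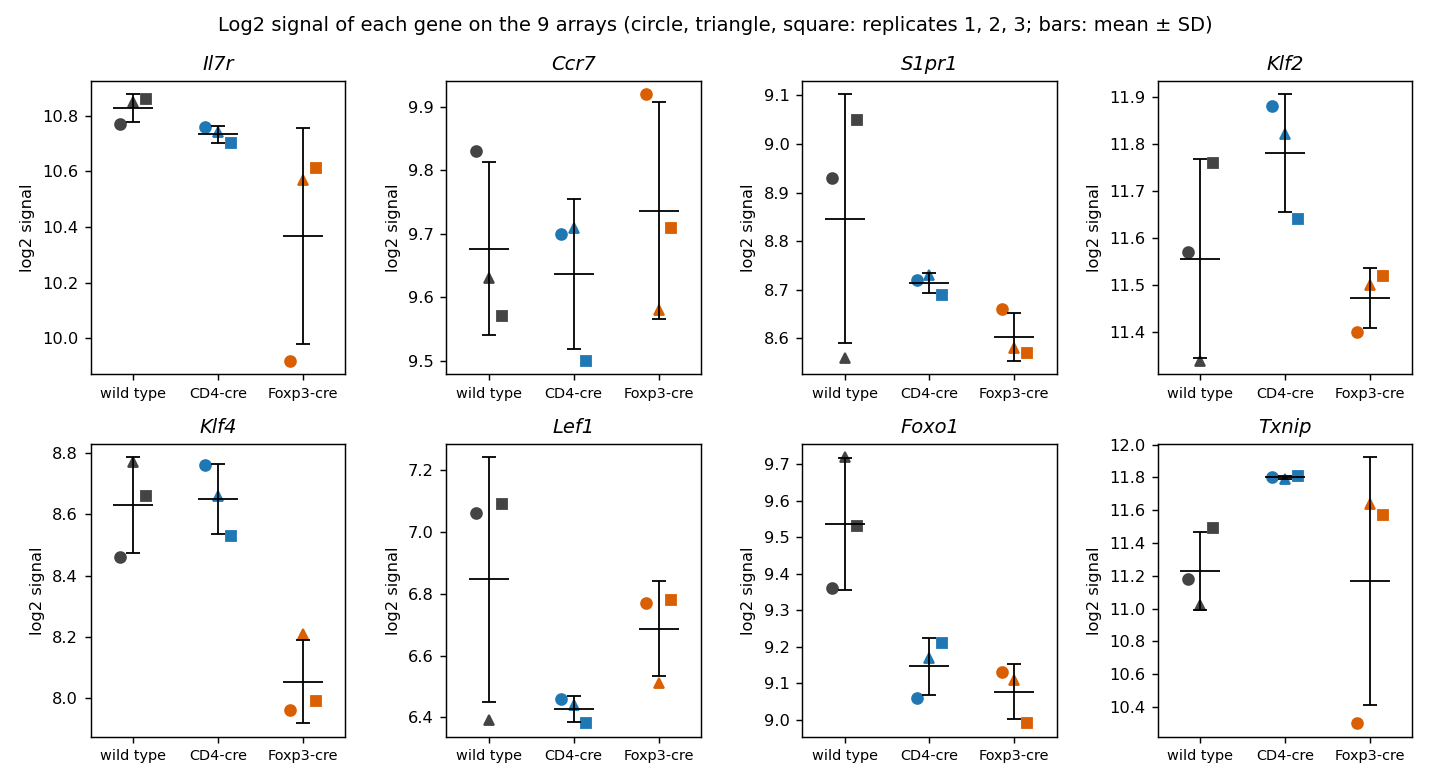
Log2 signal (vertical axis, not starting at 0) of the probe set that stands for each of the 8 genes, on the 3 arrays of each group, with replicates 1, 2 and 3 as circle, triangle and square and the mean ± SD as bars. The 3 Foxp3-cre arrays lie below the other 6 for Klf4, both knockouts lie below wild type for Foxo1, and Foxp3-cre replicate 1 is far below its group for Il7r and Txnip.

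Klf4 encodes a zinc finger transcription factor that restrains T cell proliferation and is itself a FOXO target. It has 2 probe sets. The one with the higher signal, 1417395_at, read 8.46, 8.77 and 8.66 on wild type arrays and 8.76, 8.66 and 8.53 with CD4-cre. With Foxp3-cre it read 7.96, 8.21 and 7.99. All 3 Foxp3-cre arrays were below the 6 others, while wild type and CD4-cre interleaved. The second set, 1417394_at, averaged 8.57 ± 0.43 in wild type, 8.63 ± 0.18 with CD4-cre and 8.08 ± 0.12 with Foxp3-cre (SD, n = 3 arrays). There wild type replicate 2, at 8.08, fell inside the Foxp3-cre range of 7.95 to 8.17, so only CD4-cre stayed clear of Foxp3-cre.

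Klf4 fell in Foxp3-cre by 0.57 (SE 0.11, 95% interval -0.82 to -0.33, limma adjusted p = 0.0280). Against CD4-cre the difference was -0.60 (SE 0.11, interval -0.84 to -0.35), the lowest unadjusted p of the 8 genes in that contrast, but the adjusted p was 0.146. In CD4-cre it stood at 0.02 (interval -0.23 to 0.27). The second set gave -0.49 and 0.06 for Foxp3-cre and CD4-cre against wild type, and when every probe set was tested by itself its adjusted p in Foxp3-cre was 0.205 and that of the first set 0.0337. Without wild type replicate 2 the call against wild type held (-0.51, adjusted p = 0.0321) and the contrast with CD4-cre passed (-0.60, adjusted p = 0.0387). The call against wild type was lost without wild type replicate 3 (adjusted p = 0.0833), CD4-cre replicate 1 (0.0560) or 2 (0.0604), or Foxp3-cre replicate 1 (0.0697) or 3 (0.101), at differences between -0.66 and -0.51 over the 9 such fits.

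Foxo1, the transcription factor at the head of the programme, has 4 probe sets. The brightest, 1416983_s_at, of a kind whose probes can match more than one transcript, read 9.36, 9.72 and 9.53 in wild type. With CD4-cre it read 9.06, 9.17 and 9.21, and with Foxp3-cre 9.13, 9.11 and 8.99. Both knockouts lay wholly below wild type and interleaved with each other. It fell in Foxp3-cre by 0.46 (SE 0.10, interval -0.69 to -0.23, limma adjusted p = 0.0448) and stood at -0.39 in CD4-cre (SE 0.10, interval -0.62 to -0.16, adjusted p = 0.139). The knockouts differed by -0.07 (interval -0.30 to 0.16, adjusted p = 0.902).

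The next 2 Foxo1 sets were lower in Foxp3-cre but did not treat CD4-cre alike. Set 1416981_at averaged 9.33 ± 0.12, 9.42 ± 0.04 and 8.97 ± 0.12 in wild type, CD4-cre and Foxp3-cre, and set 1416982_at 8.38 ± 0.11, 8.16 ± 0.07 and 7.99 ± 0.17 (SD, n = 3 arrays). On both, all Foxp3-cre arrays were below all wild type arrays, by -0.35 and -0.39. In CD4-cre the first of them stood at 0.09 and the second at -0.22, so the sign for CD4-cre depended on the probe set. The fourth set, 1456529_at, was below the signal threshold, at 4.59 to 4.81 on all arrays, with a mean of 4.71 in both wild type and Foxp3-cre. With every probe set tested by itself, the adjusted p in Foxp3-cre was 0.0505, 0.0799 and 0.0852 for the 3 brighter sets, none past the threshold. The call on the brightest set held without wild type replicate 2 (-0.37, adjusted p = 0.0361) but was lost without wild type replicate 3 (adjusted p = 0.100), CD4-cre replicate 1, 2 or 3 (0.0852, 0.0880 and 0.0786) or Foxp3-cre replicate 1, 2 or 3 (0.0774, 0.0967 and 0.146).

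**Figure D2:**
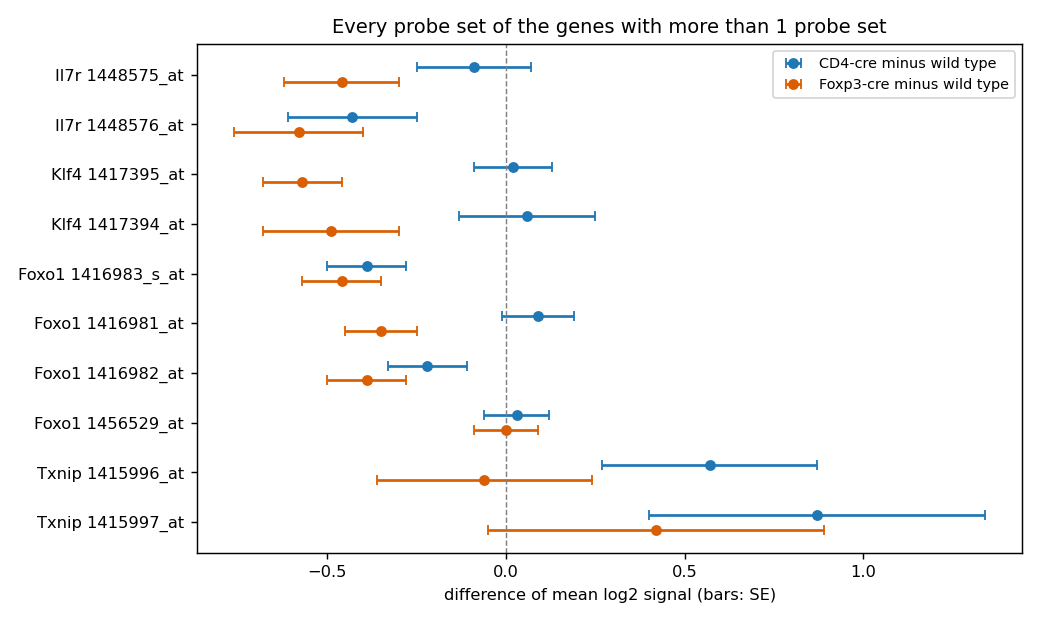
Difference of mean log2 signal from wild type (horizontal axis) for every probe set of the 4 genes with more than 1, with bars of 1 SE, for CD4-cre in blue and Foxp3-cre in orange. Both Klf4 sets and the 3 brighter Foxo1 sets lie lower in Foxp3-cre, whereas in CD4-cre the Foxo1 sets lie on both sides of 0 and both Txnip sets lie above it.

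Il7r encodes the alpha chain of the interleukin-7 receptor, which keeps naive and memory T cells alive and is lower on most regulatory T cells than on other CD4 cells. Its brighter set, 1448575_at, read 10.77, 10.85 and 10.86 in wild type, 10.76, 10.74 and 10.70 with CD4-cre, and 9.92, 10.57 and 10.61 with Foxp3-cre. The groups followed each other without overlap, wild type highest and Foxp3-cre lowest, but the lowest wild type and the highest CD4-cre array, at 10.77 and 10.76, nearly touched, and Foxp3-cre replicate 1 lay far below its own group. The difference in Foxp3-cre was -0.46 (SE 0.16, limma adjusted p = 0.147), and -0.24 without that replicate. The second set, 1448576_at, showed wild type above both knockouts, at 8.92 ± 0.19 against 8.49 ± 0.08 in CD4-cre and 8.34 ± 0.39 in Foxp3-cre (SD, n = 3 arrays), differences of -0.43 and -0.58 that did not pass.

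S1pr1, the egress receptor, read 8.93, 8.56 and 9.05 in wild type, 8.72, 8.73 and 8.69 with CD4-cre and 8.66, 8.58 and 8.57 with Foxp3-cre. Wild type replicate 2 was the lowest of the 9 arrays, while replicates 1 and 3 were the highest. With all arrays the differences were -0.13 in CD4-cre and -0.24 in Foxp3-cre (SE 0.12 each, limma adjusted p = 0.623 and 0.271). Without wild type replicate 2 they were -0.28 and -0.38 (SE 0.06 each), and the second passed (adjusted p = 0.0151) while the first did not (adjusted p = 0.0596). Foxp3-cre lay below CD4-cre on every array, by -0.11 on average (adjusted p = 0.821).

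Klf2, the factor that drives S1pr1, was carried by 1 probe set with readings of 11.57, 11.34 and 11.76 in wild type, 11.88, 11.82 and 11.64 with CD4-cre and 11.40, 11.50 and 11.52 with Foxp3-cre. CD4-cre was highest and Foxp3-cre lowest without overlap between them, and wild type overlapped both. CD4-cre stood at 0.22 (interval -0.03 to 0.48) and Foxp3-cre at -0.08 (interval -0.33 to 0.18) against wild type. The difference between the knockouts was -0.30 (interval -0.56 to -0.05, limma adjusted p = 0.354), and none of the 3 contrasts passed. Without wild type replicate 2 the differences from wild type were 0.12 in CD4-cre and -0.19 in Foxp3-cre. Neither passed (limma adjusted p = 0.506 and 0.24).

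Ccr7, the lymph node entry receptor, gave overlapping groups. It read 9.83, 9.63 and 9.57 in wild type, 9.70, 9.71 and 9.50 with CD4-cre and 9.92, 9.58 and 9.71 with Foxp3-cre. The highest array was a Foxp3-cre and the lowest a CD4-cre one, and every pair of groups overlapped. Differences were -0.04 in CD4-cre (interval -0.30 to 0.21) and 0.06 in Foxp3-cre (interval -0.20 to 0.31).

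Lef1, a TCF family factor of naive T cells, gave 7.06, 6.39 and 7.09 in wild type, 6.46, 6.44 and 6.38 with CD4-cre and 6.77, 6.51 and 6.78 with Foxp3-cre. Wild type replicate 2 read like CD4-cre, and the other wild type arrays were above all knockout arrays. CD4-cre stood at -0.42 (SE 0.17, limma adjusted p = 0.321) and Foxp3-cre at -0.16 (adjusted p = 0.590). Without wild type replicate 2 both passed, at -0.65 (SE 0.09, adjusted p = 0.0141) and -0.39 (SE 0.09, adjusted p = 0.0378). Lef1 was the 1 gene of the set that was higher in all Foxp3-cre than in all CD4-cre arrays, by 0.26 (adjusted p = 0.639).

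Txnip encodes a thioredoxin-binding protein that limits glucose uptake and is a FOXO target. Its brighter set, 1415996_at, read 11.18, 11.02 and 11.49 in wild type, 11.80, 11.79 and 11.81 with CD4-cre and 10.30, 11.64 and 11.57 with Foxp3-cre. All CD4-cre arrays were above all others, while Foxp3-cre replicate 1 was the lowest array and Foxp3-cre replicates 2 and 3 were above wild type. The difference in CD4-cre was 0.57 (SE 0.30, limma adjusted p = 0.432). In Foxp3-cre it was -0.06 with all arrays and 0.37 without replicate 1 (adjusted p = 0.920 and 0.186), and it was 0.07 without wild type replicate 3. The second set, 1415997_at, gave CD4-cre the highest mean, at 8.88 ± 0.05 against 8.01 ± 0.96 in wild type and 8.44 ± 0.82 in Foxp3-cre (SD, n = 3 arrays). There Foxp3-cre replicate 3, at 9.04, was above all CD4-cre arrays. Low outlying readings were 6.91 on wild type replicate 2 and 7.50 on Foxp3-cre replicate 1.

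**Figure D3:**
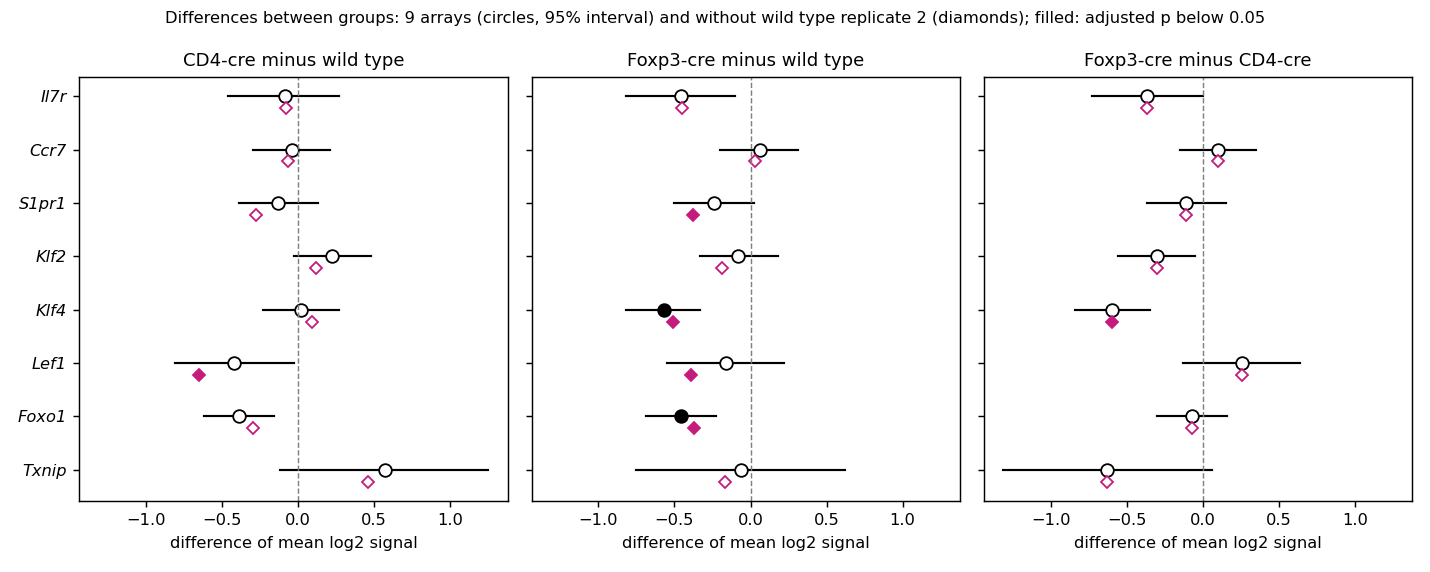
Difference of mean log2 signal (horizontal axis) for each gene in the 3 contrasts, with 95% intervals from all 9 arrays (circles) and values without wild type replicate 2 (diamonds). Symbols are filled where the limma adjusted p was below 0.05: Klf4 and Foxo1 in Foxp3-cre on all arrays, and, without that array, S1pr1, Klf4, Lef1 and Foxo1 there, Lef1 in CD4-cre and Klf4 between the knockouts.

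By the spread of single arrays, 3 of the 8 genes had all Foxp3-cre arrays below all wild type arrays (Il7r, Klf4 and Foxo1), against 12.2% of all genes tested. In CD4-cre 2 were lower without overlap (Il7r and Foxo1) and 1 higher (Txnip), where 9.16% and 11.9% of all genes were. Between the knockouts 5 lay lower in Foxp3-cre without overlap (Il7r, S1pr1, Klf2, Klf4 and Txnip), against 18.8% of all genes, and 1 higher (Lef1), against 10.9%. None of these genes passed the test of that contrast. The 8 genes were chosen with earlier results of these data known and were read on the same arrays, so these shares are a description and not a test. Without wild type replicate 2 the numbers called were 1 in CD4-cre (Lef1, lower), 4 in Foxp3-cre and 1 between the knockouts (Klf4), while the share of all genes called was 2.57%, 7.63% and 0.968%.

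Markers of myeloid cells differed between the groups too. Of 10 neutrophil markers 6 rose in Foxp3-cre, and their mean level was 7.78 to 8.75 in wild type, 8.23 to 9.08 with CD4-cre and 9.16 to 10.14 with Foxp3-cre. Monocyte and macrophage markers, 1 of 5 tested rising, spanned 6.16 to 6.65, 6.07 to 7.38 and 6.97 to 8.57. Of 6 B cell markers 0 passed by limma, with means of 8.15 to 8.77 in wild type, 8.73 to 8.82 with CD4-cre and 8.13, 9.33 and 9.50 on Foxp3-cre replicates 1, 2 and 3. Their median difference was 0.34 in CD4-cre and 0.61 in Foxp3-cre, and 0.56 and 0.83 without wild type replicate 2. Foxp3-cre replicate 1, low in Il7r and Txnip, had the lowest mean of its group for most of the marker lists. These were B cell, neutrophil, monocyte and macrophage, NK, dendritic cell, CD8 and regulatory T cell markers. Its T cell and its endothelial and stromal means were the highest of the group. A link with Il7r and Txnip was not tested. Of 6 NK and innate lymphoid markers 1 fell in Foxp3-cre, at 7.55 to 8.09 against 8.18 to 8.38 in wild type and 7.61 to 8.13 with CD4-cre. T cell markers lay between 10.63 and 10.83 on all arrays with 0 of 7 called, and 0 of 2 CD8, 0 of 3 dendritic cell and 0 of 2 endothelial and stromal markers passed in either knockout. Listed markers with a mean below the signal threshold were Ebf1 and Pax5 of B cells, C1qc, Adgre1, Itgam, Cd14 and Fcgr1 of monocytes and macrophages, Xcr1 and Zbtb46 of dendritic cells, and Cdh5, Tek, Col1a1, Col1a2 and Col3a1 of endothelium and stroma. Among 7 markers of regulatory T cells Foxp3 alone fell, to readings below the signal threshold of 4.979. It was read by the 1 probe set that stood for the gene, in the group that carried the Foxp3 cre. Whether Foxp3 RNA or protein was lost in these cells was not tested. B cells also express Foxo1, Klf2, S1pr1 and Ccr7, and monocytes express Klf4. The part of these cells in the results was not tested, and in bulk RNA fewer cells of a type and less RNA per cell cannot be told apart.

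Among genes of the wider pathway, no other FOXO factor or target passed in either knockout with all arrays. Of 18 tested 13 lay lower in Foxp3-cre, at a median of -0.12, and 9 lay lower in CD4-cre, at -0.01. Foxo3, a second FOXO factor, had all Foxp3-cre arrays below wild type, at 7.61, 7.96 and 7.84 against 8.07, 8.78 and 8.36, and a difference of -0.60 (limma adjusted p = 0.0937). In CD4-cre it stood at -0.30. The insulin receptor substrate Irs2 stood at -0.72 in Foxp3-cre and -0.36 in CD4-cre, and Btg1, an antiproliferative gene of quiescent lymphocytes, at -0.27 and -0.35. The list medians without wild type replicate 2 were -0.19 in Foxp3-cre and -0.11 in CD4-cre. Foxo3 then stood at -0.41 and -0.11 and Irs2 at -0.46 and -0.10, Foxp3-cre first, and neither passed. Btg1 passed on those arrays in both knockouts, at -0.35 in Foxp3-cre and -0.43 in CD4-cre (limma adjusted p = 0.0429 and 0.0419). Cdkn1b, the cell cycle inhibitor p27, passed in Foxp3-cre at -0.37 (adjusted p = 0.0367). Upstream of FOXO1, 0 of 12 tested PI3K and AKT pathway genes passed by limma. The catalytic subunit Pik3cd stood at -0.34 in Foxp3-cre and -0.27 in CD4-cre, Tsc1, a subunit of the complex that restrains mTOR, at -0.26 and -0.24, and the kinase Akt1 at 0.26 and 0.10. By limma 0 passed without wild type replicate 2 either, and there Akt1 stood at 0.20 and 0.04.

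Of 7 other Kruppel-like factors tested, 1 fell in Foxp3-cre and 0 were called in CD4-cre by limma. In each knockout 6 had a negative difference, at a median of -0.35 in Foxp3-cre and -0.10 in CD4-cre, and -0.26 and -0.00 without wild type replicate 2. Klf6, an immediate early member of the family, read 9.86, 9.88 and 9.94 in wild type, 9.64, 9.50 and 9.59 with CD4-cre and 9.41, 9.35 and 9.53 with Foxp3-cre. It fell in Foxp3-cre by 0.46 (SE 0.08, limma adjusted p = 0.0211), and its CD4-cre arrays, also below all wild type arrays, overlapped Foxp3-cre, at -0.31 (adjusted p = 0.126). Klf6 kept its call in Foxp3-cre without wild type replicate 2 (-0.47, adjusted p = 0.0158), and there Klf16 passed as well (-0.32, adjusted p = 0.0498).

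Of 13 other naive and resting T cell genes 2 fell in Foxp3-cre and 1 in CD4-cre, with medians of -0.09 and -0.11. Ccr9, the gut-homing chemokine receptor, fell in both, by 1.03 and 0.75 (limma adjusted p = 0.00328 and 0.0193). Il6st, the shared signalling chain of the interleukin-6 receptor, fell in Foxp3-cre by 0.75 (adjusted p = 0.0281) and stood at -0.64 in CD4-cre (adjusted p = 0.0994). The knockouts did not differ past the threshold for either gene, with differences of -0.28 and -0.11. The medians without wild type replicate 2 were -0.25 and -0.14, Foxp3-cre first, and 5 genes passed in Foxp3-cre, all lower, with Ccr9 again the 1 in CD4-cre. The genes added were the chromatin organizer Satb1 at -0.47, the costimulatory receptor Cd27 at -0.42 and the integrin chain Itga6 at -0.35 (limma adjusted p = 0.0247, 0.0188 and 0.0321).

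Of 16 other homing and egress receptors 1 fell and 1 rose in Foxp3-cre. Cxcr6, a receptor of effector and tissue T cells, fell by 1.44 (adjusted p = 0.00158), and the integrin chain Itgb1 rose by 0.83 (adjusted p = 0.0127), from 7.88, 7.41 and 7.78 in wild type to 8.57, 8.46 and 8.51. In CD4-cre Cxcr6 lay below wild type on every array, at -0.71 (adjusted p = 0.0660), and Itgb1 stood at 0.01. Between the knockouts the differences were -0.73 for Cxcr6 and 0.81 for Itgb1 (adjusted p = 0.15 and 0.0805). Both of these passed without wild type replicate 2 (adjusted p = 0.0387 and 0.00467). On the same arrays Cxcr6 passed in CD4-cre (-0.81, adjusted p = 0.0216), as did the chemokine receptor Ccr2 (-0.92, adjusted p = 0.0325), and Ccr10 passed as higher in Foxp3-cre (0.33, adjusted p = 0.0321).

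No tested partner of LEF1 or of the interleukin-7 receptor passed in either knockout with all arrays. Of 9 tested TCF and LEF partners 0 passed by limma, at list medians of -0.06 (CD4-cre) and -0.09 (Foxp3-cre). Axin2, a Wnt target, stood at -0.06 and -0.37, and the corepressor Tle1 at 0.16 and -0.37. Axin2 without wild type replicate 2 stood at -0.14 and -0.44, and the second passed (adjusted p = 0.0351). For Tle1 all CD4-cre arrays were above and all Foxp3-cre arrays below wild type, as were 11.9% and 12.2% of all genes tested. The contrast between the knockouts, -0.53, did not pass (limma adjusted p = 0.232). Tle1 readings, 4.68 to 5.67, lay near the signal threshold of 4.979. The lowest CD4-cre array, at 5.49, nearly touched the highest wild type array, at 5.44. Ctnnb1, beta-catenin, stood at 0.15 and 0.18, and at 0.00 and 0.03 without wild type replicate 2. Of 9 interleukin-7 receptor partners and signalling genes 0 passed. The kinase Jak1 stood at 0.34 and 0.13, and the inhibitors Socs1 at 0.36 and 0.21 and Cish at 0.16 and 0.18, CD4-cre first. Jak1 was lowest on wild type replicate 2, at 10.20 against 10.71 or more, and without it Jak1 stood at 0.09 and -0.12, Socs1 at -0.01 and -0.16 and Cish at 0.06 and 0.08. The list medians, 0.22 and 0.10 with all arrays, were then 0.06 and -0.03, and 0 passed by limma.

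**Figure D4:**
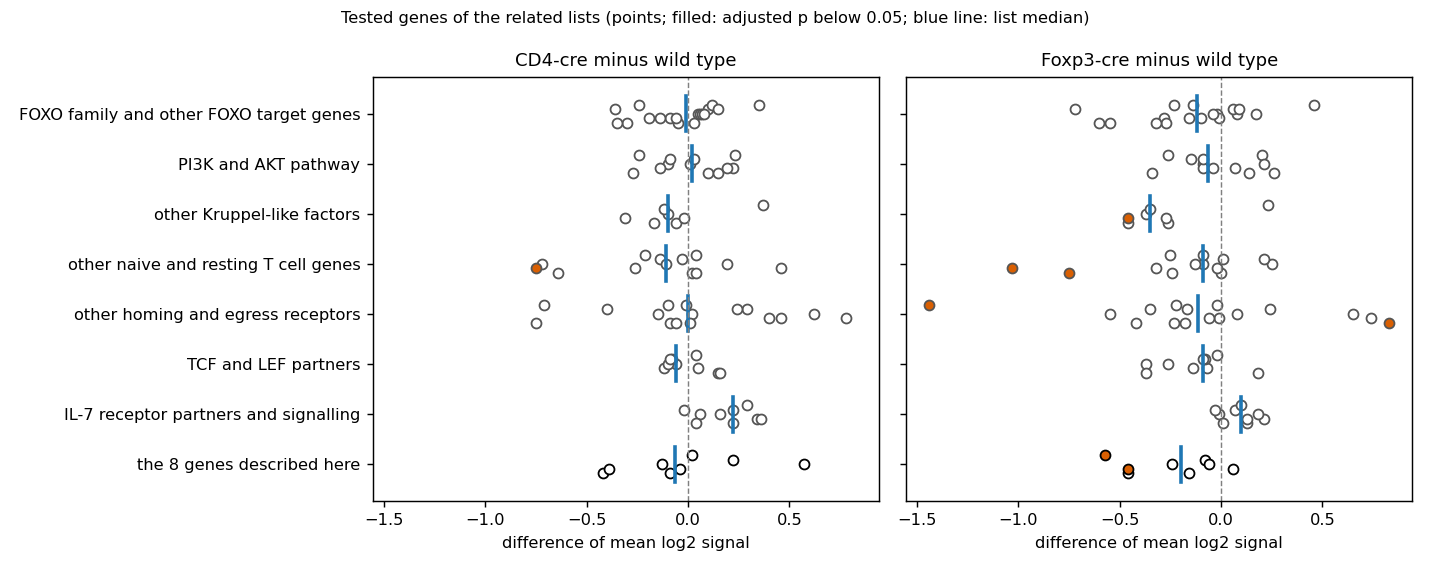
Difference of mean log2 signal from wild type (horizontal axis) for each tested gene of the related lists, in CD4-cre (left) and Foxp3-cre (right), with list medians as blue lines and genes past the limma threshold filled. Medians stay within 0.35 of 0 on either side, and the filled points in Foxp3-cre are Klf4 and Foxo1, Klf6, Ccr9, Il6st, Cxcr6 and Itgb1.

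The genes most like each of the 8 over the 9 arrays, by Pearson correlation among all genes tested, are given as a description, since 9 arrays of 3 groups give high values for many genes. Il7r was most like Cxcr4, a chemokine receptor of lymphoid and marrow homing (r = 0.96, 0.98 without wild type replicate 2), and the T cell kinase Tec (0.95). Klf4 was most like Tut1 and Gpr146 (0.96 each), and 43 genes reached 0.9 with it. Foxo1 was most like the phosphate transporter Slc20a1 (0.98) and Sfn (0.97), with 87 genes at 0.9 or more. Txnip was most like Phlpp1, a phosphatase that acts on AKT, and Nrros (0.96 each). S1pr1 was most like the interferon receptor chain Ifnar1 and Smad1 (0.96 each), Klf2 like Sh3gl1 and Dhx30 (0.96 each), Ccr7 like Rpn2 (0.95) and Psmb4 (0.94), and Lef1 like Irf9 (0.95) and Rassf2 (0.94). In this ranking over all 9 arrays, no gene of the set was among the 2 most like another. Without wild type replicate 2, r went from 0.32 to 0.94 for S1pr1 and Foxo1 and from 0.52 to 0.92 for Klf2 and Klf4. It went from 0.15 to 0.64 for Lef1 and Foxo1 and from -0.27 to 0.20 for Klf2 and Foxo1. Some other pairs fell, such as Klf2 and Lef1, from -0.02 to -0.25.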

How the data were processed

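RNA of 9 samples was measured on 1 Affymetrix array each. The deposited values are log2 signals made by the authors with RMA, per the submitters' processing notes. RMA corrects the background, normalizes between arrays, which removes a change common to all genes, and compresses differences of dim probe sets. The sources used here give neither the version of RMA nor a genome build. Values span 1.57 to 14.06, with array medians of 5.37 to 5.45, and the number of arrays limits the precision.

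Groups follow the labels. The 64 control probe sets were left out, and 20380 probe sets carry 1 gene symbol, 691 several and 1555 none in the platform annotation, with 20351 matched by gene ID to RefSeq GRCm38.p6. Each of 12393 genes was represented by its brightest probe set, and the 7436 whose mean reached the 40th percentile of gene means, 4.979, entered 1 two-sided limma fit over the 3 groups (limma 3.58.1, R 4.3.3, lmFit, eBayes, Benjamini-Hochberg). The median SE was 0.11. The fit was tested on simulated data with normal noise, independent between arrays, so an array that stands apart was not covered. An exact permutation test of 3 against 3 arrays cannot go below p = 0.1 and was not used. Nothing in the labels says that arrays came from separate animals, so the spread behind the p-values may be technical. The genes and lists were chosen with earlier results of these data known. Named genes are the 9 listed ones, Sirt1, Foxp3, Cd4 and Il2ra, and, from each list, up to 4 called genes per contrast, or the 2 with the largest difference in each knockout where none passed, and the 2 most like each gene. Motifs, and the genes named as passing without wild type replicate 2, were chosen after values were seen. Alternatives changed the filter, the probe sets, eBayes, weights, arrays, scaling and the replicate block.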

Additional observations from a re-analysis of the deposited data

How the results depend on the processing

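The number of the 8 genes called was 0 in CD4-cre, 2 in Foxp3-cre and 0 between the knockouts. In Foxp3-cre it was 1 with no filter on low signals and 1 with every probe set tested by itself. With array weights the 3 counts were 3, 4 and 2. With the arrays of the compared groups alone they were 0, 0 and 1. Leaving out 1 array gave 0 to 1 in CD4-cre, 0 to 4 in Foxp3-cre and 0 to 1 between the knockouts. The other settings kept these counts, except the replicate block. Over all genes the counts of 49, 250 and 1 became 1298, 1539 and 812 with weights and 22, 16 and 55 with the compared groups alone, 2 between the knockouts with array medians subtracted, and 4 to 191, 71 to 567 and 1 to 72 with 1 array left out.

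Labels share replicate numbers across groups. Of 9 same-numbered pairs 2 had deviations that correlated at -0.0056 and -0.032, the others at 0.12 to 0.49. Pairs with different numbers ran from -0.39 to 0.32. The labels do not say that the numbers pair the samples, so the main fit did not pair them. Whether same-numbered arrays share a batch was not tested. With the replicate block, 1 of the 8 genes was called between the knockouts, Klf4 at -0.60 (limma adjusted p = 0.0420), and 96 genes in all. Against wild type the block called 67 genes in CD4-cre and 354 in Foxp3-cre, where the main fit called 49 and 250.

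Signs turned only for small differences that passed no test. Txnip in Foxp3-cre became 0.18 with the mean of its probe sets and 0.02 with array weights, and ran from -0.30 to 0.37 with 1 array left out. Ccr7 in CD4-cre became 0.05 with weights and ran from -0.09 to 0.03, and in Foxp3-cre from -0.03 to 0.14. Klf4 in CD4-cre became -0.00 with medians subtracted and ran from -0.06 to 0.09, and Klf2 in Foxp3-cre ran from -0.19 to 0.02. The cause was not tested. Klf4 kept its call in Foxp3-cre in 4 of 9 fits with 1 array left out and Foxo1 in 2, at lower degrees of freedom. The number of arrays limits what could be detected: with all arrays, differences as far from 0 as -0.63 (Txnip between the knockouts) did not pass.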
